A study of Mus musculus with 16 samples.

Results

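Cytochrome P450 genes of the Cyp3a family, namely Cyp3a11, Cyp3a13, Cyp3a16, Cyp3a25, Cyp3a41a and Cyp3a44, were followed through liver of 16 mice, 1 array per mouse. They were taken by name, as all probes whose RefSeq accession belongs to one of these genes, which gave 8 probes of 6 of the 19096 genes that could be named on the array. Each of the others had 1 probe, while Cyp3a25 and Cyp3a44 had a pair each. A further gene of the family, Cyp3a57, had 1 probe, which was well above background on 2 of 16 arrays and was not tested. All mice were males and all had received N-diethylnitrosamine (DEN), a carcinogen that the liver activates, in a single injection of 90 mg/kg at 5 weeks of age. The WT DEN group consisted of C57BL/6J mice without further treatment, and the WT DEN + PB group also drank phenobarbital (PB), a promoter of liver tumors, at 0.5 g/l from 7 weeks of age. The KO DEN and KO DEN + PB groups were treated in the same way and carried the null allele of Gadd45b, on a stock whose name holds a second strain beside C57BL/6, so that strain and genotype cannot be told apart. Livers were taken at 57 weeks, from tissue outside tumors, and each group had 4 arrays. The comparisons ask how PB changes these genes and whether Gadd45b is needed for that change.

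Cyp3a genes encode cytochrome P450 enzymes of the endoplasmic reticulum, which oxidize drugs, steroids and bile acids with electrons passed on by the reductase Por. In mouse liver they are known targets of the nuclear receptors PXR (Nr1i2) and CAR (Nr1i3), which pair with Rxra at the DNA, and PB is the classical activator of CAR. Cyp3a11 is the main form studied in adult liver, Cyp3a13 is best known from the intestine, Cyp3a16 from liver around birth, Cyp3a25 from adult liver, and Cyp3a41a and Cyp3a44 from female liver.

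The genes lie together on chromosome 5, in the order Cyp3a16, Cyp3a41a, Cyp3a44, Cyp3a11 and Cyp3a25 within 540.2 kb, and Cyp3a13 lies 7.55 Mb away (RefSeq, GRCm38.p6). The promoter sequences are shown because Cyp3a11 and Cyp3a16, the members called after PB, can be set beside their neighbors. The windows held 250 bases before and 50 bases after each start, all 6 members had one, and all are on the minus strand. Of each, the last 120 bases before the start are printed, 5′ to 3′, with the letters CAAAGTCCA (a form of the element bound by Hnf4a, a liver factor) and TATAA (the TATA element) in capitals.
Cyp3a11 (chr5:145879855-145879974): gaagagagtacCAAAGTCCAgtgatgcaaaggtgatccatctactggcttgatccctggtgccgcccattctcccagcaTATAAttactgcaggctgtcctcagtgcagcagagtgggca
Cyp3a16 (chr5:145469724-145469843): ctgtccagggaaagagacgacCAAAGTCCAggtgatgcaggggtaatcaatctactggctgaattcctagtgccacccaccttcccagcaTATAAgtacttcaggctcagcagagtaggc
Cyp3a41a (chr5:145720137-145720256): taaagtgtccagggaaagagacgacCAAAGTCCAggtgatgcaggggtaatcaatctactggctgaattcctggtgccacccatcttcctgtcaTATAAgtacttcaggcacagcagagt
Cyp3a44 (chr5:145805875-145805994): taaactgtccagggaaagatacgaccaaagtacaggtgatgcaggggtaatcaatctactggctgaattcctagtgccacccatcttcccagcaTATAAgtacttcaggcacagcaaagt
Cyp3a25 (chr5:146009619-146009738): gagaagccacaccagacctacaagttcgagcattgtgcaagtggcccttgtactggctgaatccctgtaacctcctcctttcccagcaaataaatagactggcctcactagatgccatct
Cyp3a13 (chr5:137921620-137921739): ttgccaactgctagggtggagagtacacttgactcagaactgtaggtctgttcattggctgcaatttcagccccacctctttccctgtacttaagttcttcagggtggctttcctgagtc

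The windows of Cyp3a16, Cyp3a41a and Cyp3a44 were 92.4% to 93.4% identical to each other in global alignments, and that of Cyp3a11 was 71.6% to 75.2% identical to these. Every pair that included Cyp3a13 or Cyp3a25 shared 52.7% to 58.1%. Both strands were searched and overlapping matches were all counted. CAAAGTCCA stood in the windows of Cyp3a11, Cyp3a16 and Cyp3a41a, against 0.475% of all 32851 windows. At the same place Cyp3a44 differed from Cyp3a16 by 1 substitution, C7A, counted from 1 at the 5′ end of CAAAGTCCA. TATAA stood in the windows of 5 members (24.9% of all windows), and in Cyp3a11, Cyp3a16, Cyp3a41a and Cyp3a44 one match began between positions -41 and -26 relative to the start. AGGTCA, the core letters bound by many nuclear receptors, was in the windows of Cyp3a11, Cyp3a25 and Cyp3a44 (16.3% of all windows), and the variant AGTTCA in those of Cyp3a11 and Cyp3a41a (14.0%). A pair of these letters spaced as a direct repeat with 3, 4 or 5 bases between, or as an everted repeat with 6 or 8 bases between, was in none of the member windows and in at most 0.0396% of all windows. The Cyp3a13 window is the start given in the promoter table and lies inside the span of that gene in the gene table, so an upstream start would have another window. The lack of a match says only that these letters are not in this stretch, since the search did not reach distal enhancers.

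**Figure D1:**
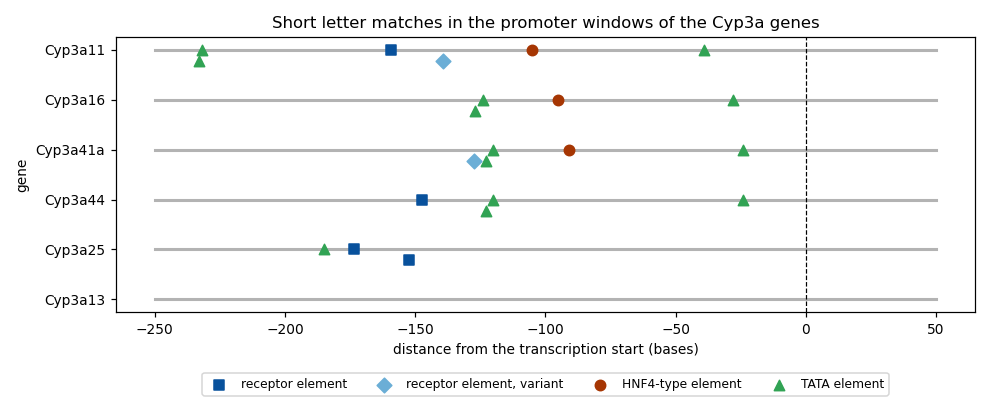
Letter matches in the promoter windows of the 6 Cyp3a genes, by distance from the transcription start in bases (the first of the 2 starts listed for Cyp3a25). Symbols on the line are matches on the gene's own strand and symbols under it on the opposite strand. CAAAGTCCA is plotted as the HNF4-type element, AGGTCA as the receptor element, AGTTCA as its variant and TATAA as the TATA element. Cyp3a11, Cyp3a16 and Cyp3a41a hold the HNF4-type element, and Cyp3a13 holds no match.

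The arrays had a 75th percentile of the processed signal of 137 to 294, and levels below are log2 signals after division by that percentile. The targeted gene, Gadd45b, was detected above background in 8 of 8 WT livers and in 0 of 8 KO livers. Of 12 hepatocyte markers 10 could be tested, and all 10 were well above background on every array. Since these are bulk samples, fewer cells of a type and less RNA per cell cannot be told apart. A probe was called where it changed at least 1.5-fold with a limma p, adjusted over 24457 probes, under 0.05. Probe sequences were not used here, so which of these similar transcripts a probe binds was not tested, and each Cyp3a value may include a close relative.

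PB in WT liver gave no Cyp3a call. All 8 probes were higher in WT DEN + PB than in WT DEN on average, with a median difference of 0.28 log2 (0.23 without the dim Cyp3a44 probe described below) against -0.02 over all probes, and 0 of 8 were called. Of all probes 0.666% were called, 0.589% as higher. Of the 7 brighter probes 2 had an unadjusted limma p under 0.05, those of Cyp3a11 and Cyp3a16, against 7.29% of all probes. Of the same 7, 0 separated the groups without overlap, as 2.72% of all probes did with PB higher. PB in KO liver gave 2 calls of 8, Cyp3a11 and Cyp3a16, where 1.72% of all probes were called and 1.05% as higher. There too all 8 probes were higher on average, with a median difference of 0.50 log2 (0.46 without the dim probe) against 0.00 over all probes. With normexp background correction followed by quantile normalization, the medians of the 8 were 0.33 in WT and 0.26 in KO. With quantile normalization of the processed signal they were 0.38 and 0.36, so which genotype had the larger median depended on the processing. For Cyp3a11 and Cyp3a16 alike, the two-sided exact permutation test gave p = 0.0571 in WT and p = 0.0286 in KO, the smallest p that the 70 assignments of 4 against 4 arrays allow. Among markers of other cells, 2 of 6 cholangiocyte markers, Krt7 and Krt19, were called higher after PB in WT, and 0 of 6 in KO. The difference of the PB effects between genotypes was not called for either (limma adjusted p = 0.325 and 0.162). The summed level of the 6 markers was 3.67 to 5.02 log2 in WT DEN and 4.21 to 5.17 in WT DEN + PB. These ranges overlapped, and all 6 were above background on every array. The 10 hepatocyte markers were all lower after PB in WT, with 0 called by limma and 4 at an unadjusted p under 0.05, and the part of either list in the Cyp3a values was not tested.

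Cyp3a11 (A_51_P355301) is the member most often used as a readout of PXR and CAR. Its 4 WT DEN arrays read 7.38, 7.04, 7.82 and 7.39, and its 4 WT DEN + PB arrays 7.80, 8.19, 8.09 and 8.09 (log2 level). The highest WT DEN array lay just above the lowest WT DEN + PB array, so the groups touched. The 4 KO DEN arrays read 7.23, 6.54, 7.15 and 7.46, and the 4 KO DEN + PB arrays 8.07, 7.91, 7.91 and 7.96. All KO DEN + PB arrays were above all KO DEN arrays. By level the groups followed as KO DEN (7.09 ± 0.39, SD, n = 4), WT DEN (7.41 ± 0.32), KO DEN + PB (7.96 ± 0.07) and WT DEN + PB (8.04 ± 0.17), and the first pair as well as the last pair overlapped. The PB difference was 0.63 log2 in WT (SE 0.19, limma adjusted p = 0.246) and 0.87 log2 in KO (SE 0.19, limma adjusted p = 0.0286), that is 1.82-fold in KO. On the 3 slides that held both treatments, it was -0.02 to 0.88 in WT and 0.61 to 1.42 in KO.

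Cyp3a16 (A_51_P482051) followed Cyp3a11. Its WT DEN arrays read 6.05, 5.63, 6.46 and 5.95, and its WT DEN + PB arrays 6.31, 6.85, 6.51 and 6.69. Replicate 3 of WT DEN reached into the range of the PB arrays, as it did for Cyp3a11. Its KO DEN arrays read 5.90, 5.74, 5.58 and 6.02 and its KO DEN + PB arrays 6.72, 6.48, 6.93 and 6.59, again without overlap. The order of the groups was KO DEN (5.81 ± 0.19, SD, n = 4), WT DEN (6.02 ± 0.34), WT DEN + PB (6.59 ± 0.23) and KO DEN + PB (6.68 ± 0.19), with overlap between the first pair and between the last pair. The PB difference was 0.57 log2 in WT (SE 0.18, limma adjusted p = 0.303) and 0.87 log2 in KO (SE 0.18, limma adjusted p = 0.0198), or 1.83-fold in KO. It was -0.16 to 0.90 on the 3 slides with both treatments in WT and 0.59 to 1.13 on those in KO.

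The KO calls stood close to the threshold. Leaving out 1 of the 8 KO arrays ended the call of Cyp3a11 for 7 of the 8 (replicates 1, 2 and 3 of KO DEN and all 4 of KO DEN + PB), with a limma adjusted p of 0.0230 to 0.0704 over the 8, and that of Cyp3a16 for 3 (replicates 2 and 3 of KO DEN and replicate 3 of KO DEN + PB), with 0.0298 to 0.0706. With the slide as a block, Cyp3a11 differed by 0.92 log2 in KO and was no longer called (limma adjusted p = 0.0509). With quantile normalization in place of the 75th percentile, Cyp3a11 differed by 0.73 log2 in WT and 0.72 in KO (limma adjusted p = 0.187 and 0.106) and Cyp3a16 by 0.69 and 0.76 (limma adjusted p = 0.0534 and 0.0166). A contrast chosen after the data were seen, the PB effect averaged over both genotypes, called the same pair and no other of the 8 probes, where 1.28% of all probes were called higher. In it Cyp3a11 was 1.68-fold higher after PB (limma adjusted p = 0.00533) and Cyp3a16 1.64-fold (limma adjusted p = 0.0048), and both calls held without any 1 of the 16 arrays.

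**Figure D2:**
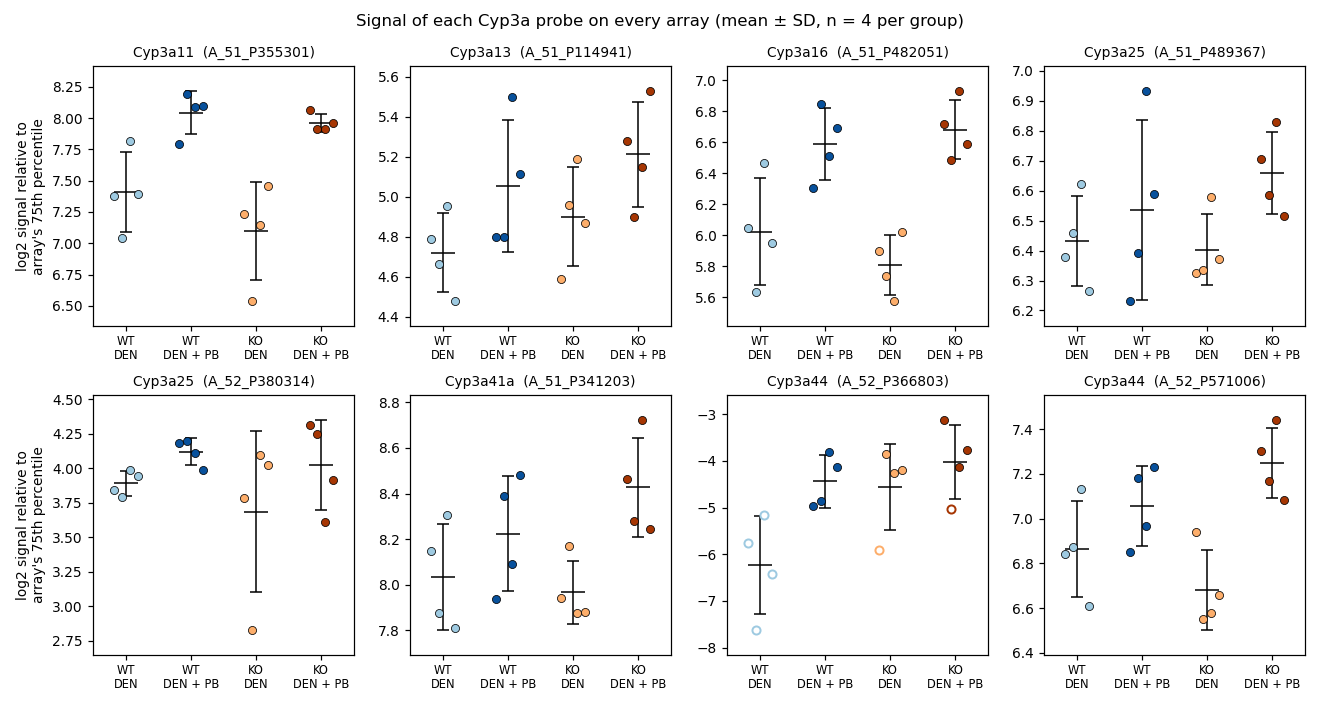
Level (log2 signal over the 75th percentile of the array) for each of the 8 Cyp3a probes on each of the 16 arrays, with the mean and SD of each group (n = 4). Open points are arrays on which the probe was not well above background. For Cyp3a11 and Cyp3a16 the 4 KO DEN + PB arrays lie above the 4 KO DEN arrays, while for the Cyp3a44 probe A_52_P366803 no WT DEN array is above background.

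Probes of Cyp3a41a and Cyp3a44, genes known for female liver, read well above background in these males, on all 16 arrays for Cyp3a41a and for the Cyp3a44 probe A_52_P571006. The 4 Y-linked genes that could be tested were also well above background on all 16 arrays. The other Cyp3a44 probe lay near background, and which transcripts each of these probes binds was not tested. Cyp3a41a (A_51_P341203) read 8.15, 7.88, 8.31 and 7.81 in WT DEN and 7.94, 8.39, 8.09 and 8.48 in WT DEN + PB, which overlapped widely. In KO DEN it read 7.94, 8.17, 7.87 and 7.88 and in KO DEN + PB 8.46, 8.28, 8.72 and 8.25, with all PB arrays on top. Such separation of KO DEN + PB above KO DEN was seen for 4 of the 8 Cyp3a probes and for 3.62% of all probes. The difference of 0.46 log2 in KO (SE 0.17, limma adjusted p = 0.223) was not called, nor was that of 0.19 in WT (limma adjusted p = 0.926). With other processing the limma adjusted p ranged from 0.0227 to 0.676 in KO and from 0.0142 to 0.9999 in WT, without a call.

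The brighter Cyp3a44 probe, A_52_P571006, read 6.84, 6.87, 7.13 and 6.61 in WT DEN and 6.85, 7.18, 6.97 and 7.23 in WT DEN + PB. These ranges overlapped. In KO it read 6.94, 6.55, 6.58 and 6.66 with DEN and 7.30, 7.17, 7.44 and 7.08 with DEN + PB, where the groups did not overlap. The differences were 0.19 log2 in WT (limma adjusted p = 0.903) and 0.57 log2 in KO (SE 0.15, limma adjusted p = 0.0752), neither of them called. With other processing the limma adjusted p in KO ranged from 0.0424 to 0.606, without a call.

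The other Cyp3a44 probe, A_52_P366803, lay near background. Above background on 0 of 4 WT DEN arrays, it read there -5.75, -7.62, -5.16 and -6.42, while on the WT DEN + PB arrays it was above background on 4 of 4, at -4.96, -4.87, -3.80 and -4.13. All WT DEN + PB arrays were higher, but the probe passed the filter through that group alone, so its separation and p in WT are given as a description. Because the lower group was not measured above background, the difference with this scaling is given as a bound of at least 1.89-fold. The limma adjusted p of 0.218 belongs to the fitted difference of 1.80 log2, and the bound itself was not tested. With other processing the fitted difference was as low as 0.10 log2, so the bound does not hold for every processing. In KO it was above background on 3 of 4 arrays in each group, at -5.91, -3.85, -4.27 and -4.20 with DEN and at -3.13, -5.03, -4.13 and -3.77 with DEN + PB, and these ranges overlapped. Over the 16 arrays the pair of Cyp3a44 probes correlated with r = 0.27, and with r = -0.03 once group means were subtracted, so one probe does not stand in for the other.

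Cyp3a13 and Cyp3a25, the remaining members, were not called in any comparison. Cyp3a13 (A_51_P114941) spanned 4.48 to 4.95 in WT DEN, 4.80 to 5.50 in WT DEN + PB, 4.59 to 5.19 in KO DEN and 4.90 to 5.53 in KO DEN + PB. Each PB group overlapped its DEN group, and the differences were 0.33 log2 in WT and 0.31 in KO (limma adjusted p = 0.811 and 0.586). Cyp3a25 spanned 6.23 to 6.93 over all arrays by probe A_51_P489367, with PB differences of 0.10 log2 in WT and 0.26 in KO (limma adjusted p = 0.98 and 0.58). Its other probe, A_52_P380314, spanned 3.61 to 4.32 apart from replicate 2 of KO DEN at 2.83, and differed by 0.23 log2 in WT and 0.34 in KO (limma adjusted p = 0.943 and 0.656). Without that array the KO difference was 0.05 log2 (limma adjusted p = 0.953). The pair of Cyp3a25 probes correlated with r = 0.21 over the 16 arrays.

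**Figure D3:**
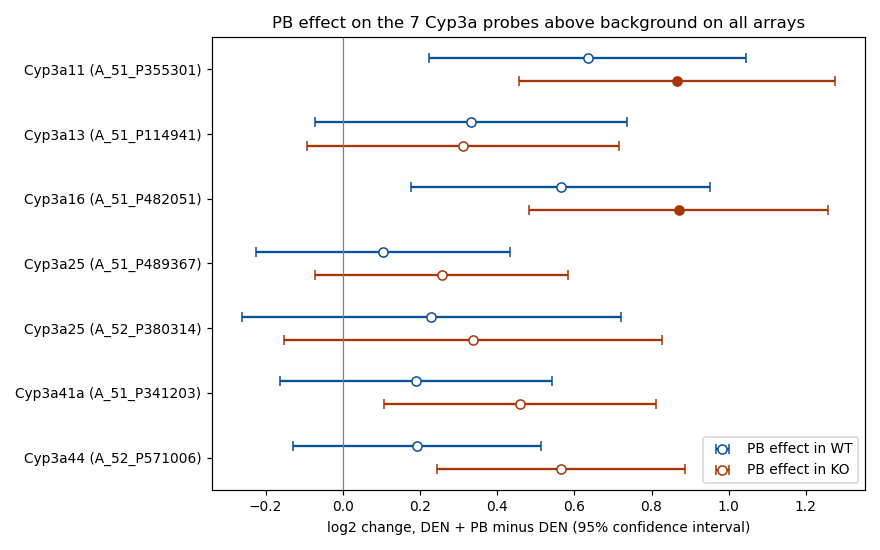
PB effect (DEN + PB minus DEN, log2) with its 95% confidence interval from the limma fit for the 7 Cyp3a probes above background on all arrays, in WT (blue) and KO (brown). Filled points passed the adjusted p and the 1.5-fold limit, which Cyp3a11 and Cyp3a16 did in KO and none did in WT. All 14 points lie above 0.

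The test of whether the PB effect differed between genotypes called 0 of 8 Cyp3a probes, and 0.00818% of all probes. As WT minus KO, the difference was -0.23 log2 for Cyp3a11 (95% confidence interval -0.81 to 0.35), -0.31 for Cyp3a16 (-0.85 to 0.24) and -0.37 for the brighter Cyp3a44 probe (-0.83 to 0.08). The smallest limma adjusted p among the 8 was 0.921, and 0 of them had an unadjusted p under 0.05, as 6.03% of all probes did. A call in KO and none in WT is therefore not a difference shown between the genotypes. The sign also depended on the scaling, since for Cyp3a11 it turned to 0.02 with quantile normalization. It turned to 0.04 with normexp background correction, which quantile normalization followed as well.

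Genotype alone gave no Cyp3a call. Under DEN 0 of 8 probes were called by limma between KO and WT, where 3.07% of all probes were, and under DEN + PB 0 of 8, where 6.74% were. At an unadjusted limma p under 0.05 stood 1 probe under DEN, the dim one of Cyp3a44, and 0 under DEN + PB. Of all probes 20.4% and 23.0% did. No member separated the genotypes without overlap, as 11.9% of all probes did under DEN and 16.1% under DEN + PB. For the 7 brighter probes, KO minus WT was -0.31 to 0.18 log2 under DEN and -0.10 to 0.20 under DEN + PB. The dim Cyp3a44 probe, which passed the filter through WT DEN + PB alone, averaged higher in KO DEN than in WT DEN. With this scaling the bound was at least 1.74-fold. The limma adjusted p of 0.0889 belongs to the fitted difference of 1.68 log2, and the bound itself was not tested. With other processing the fitted difference was as low as 0.07 log2. Replicate 1 of KO DEN was below background and, at -5.91, lay within the WT DEN range of -7.62 to -5.16. Without that array the probe was called (limma adjusted p = 0.0406), which is given as a description. It was the only 1 of 16 left-out arrays to change the result. Markers of other cells did move with genotype. Under DEN + PB, 7 of 9 Kupffer and leukocyte markers, 4 of 8 endothelial, 3 of 8 stellate and 3 of 6 cholangiocyte markers were called lower in KO (4.61% of all probes), and under DEN 3 of 9 of the Kupffer and leukocyte and 2 of 8 of the endothelial markers (1.41% of all probes). The summed level of the Kupffer and leukocyte markers was 5.28 to 5.48 log2 in WT DEN + PB and 4.12 to 4.54 in KO DEN + PB, with all 9 above background in each group, and their part in the Cyp3a values was not tested.

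The receptors and factors of the Cyp3a genes gave no call. Of 15 listed, 14 could be tested, and 0 were called by limma for the PB effect in WT, in KO or in any other comparison. At an unadjusted limma p under 0.05 stood 0 of 14 for both PB effects, against 1104 of 13306 genes tested in WT and 1765 in KO. Nr1i2, the receptor PXR, differed by 0.01 log2 after PB in WT and by 0.01 in KO, and Nr1i3, the receptor CAR, by -0.26 and 0.24 (limma adjusted p = 0.83 and 0.622). The largest value in WT was that of the liver factor Foxa3, at -0.65 log2 (limma adjusted p = 0.762). Of 9 genes for electron supply and heme, Por, the reductase that serves these P450 enzymes, rose by 0.89 log2 in WT (limma adjusted p = 0.0336) and 1.09 in KO (limma adjusted p = 0.00489). Alas1, the first enzyme of heme synthesis, rose by 1.69 log2 in both, and was called in KO alone (limma adjusted p = 0.0421). The calls were thus 1 of 9 in WT and 2 of 9 in KO, where 87 and 167 of all 13306 genes tested were called higher.

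Many of the other CAR and PXR targets, a list chosen with earlier results of these data known, were called after PB. The difference between them and the Cyp3a genes was not tested. Of 29 tested, Gadd45b itself among them, 13 were called higher after PB in WT and 18 in KO, with none called lower. Of all 13306 genes tested, 87 were called higher in WT and 167 in KO. The medians of the 29 were 0.82 and 1.03 log2, against -0.02 and 0.01 over all genes tested. Cyp2b10, the classical PB-induced P450, rose by 6.69 log2 in WT and 6.80 in KO, Cyp2c55 by 4.40 and 4.16, and Cyp2c65 by 4.62 and 4.55. The transporter Abcc4 rose by 3.49 log2 in WT and by 2.51 in KO, both called. Sult1e1, an estrogen sulfotransferase, rose by 2.45 log2 in WT and by 5.27 in KO (limma adjusted p = 2.08e-06 in KO), both called. It was 3.28 log2 higher in KO than in WT under DEN + PB. The difference of its PB effects, -2.82 log2 as WT minus KO, was not called (limma adjusted p = 0.185). Among the female-biased genes outside the family, 2 of 14 were called higher in WT and 4 of 14 in KO, with Cyp2b13 at 6.28 and 6.69 log2 and Cyp2b9 at 5.19 and 5.95 in both, and Hao2 and Cyp2a4 at 2.61 and 0.89 in KO. Cyp2a4 also stands among the CAR and PXR targets, and rose by 0.84 log2 in WT, where it was not called. Of 17 male-biased genes, Susd4 alone was called in WT, as lower, and Cyp2u1 alone in KO, also as lower. Over all genes tested 11 were called lower in WT and 116 in KO. None of 14 genes of growth hormone and sex hormone signaling was called by limma in either. At an unadjusted limma p under 0.05 were 2 of them in WT and 3 in KO, against 1104 and 1765 of all 13306 genes. Of the female-biased genes 6 of 14 stood there in WT and 8 in KO, and of the male-biased genes 7 of 17 in each. By sign, 8 of the 14 female-biased genes were higher in WT and 14 in KO, while 13 of the 17 male-biased genes were lower in WT and 9 in KO.

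**Figure D4:**
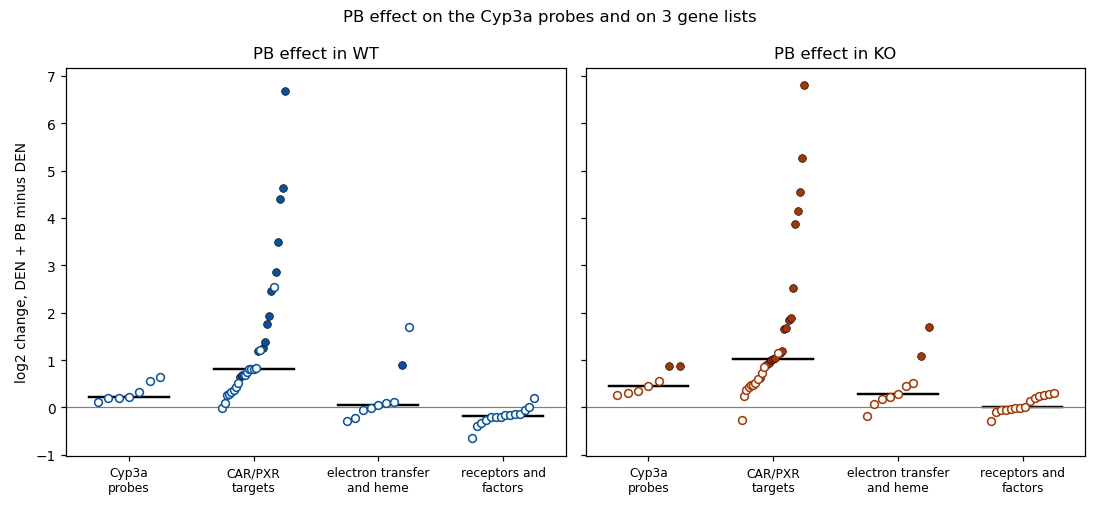
PB effect (DEN + PB minus DEN, log2) in WT and KO for the 7 Cyp3a probes above background on all arrays, 29 other CAR and PXR targets, 9 genes of electron supply and heme, and 14 receptors and factors. Each point is 1 probe or gene, filled where called, and bars are medians. The Cyp3a points lie between 0.10 and 0.87, below Cyp2b10 at 6.69 and 6.80.

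Within the family some pairs of probes varied alike from mouse to mouse. Over 16 arrays, which share groups and scaling, Cyp3a11 and Cyp3a16 correlated with r = 0.91, Cyp3a16 and the brighter Cyp3a44 probe with r = 0.88, Cyp3a41a and that probe with r = 0.86, and Cyp3a16 and Cyp3a41a with r = 0.83. After group means were subtracted these were 0.69, 0.70, 0.72 and 0.73. Not every pair of probes of similar genes varied alike, and some probe pairs of less similar genes did, though not with each probe of the gene. The part of transcripts bound by both probes of a pair in these r values was not tested. Cyp3a11 and the Cyp3a25 probe A_52_P380314 correlated with r = 0.70, and 0.67 within groups. Replicate 2 of KO DEN read lowest for both of these probes, at 6.54 and 2.83, and r without it was not computed. With the other Cyp3a25 probe, A_51_P489367, Cyp3a11 correlated with r = 0.50, and 0.28 within groups. Cyp3a11 and the brighter Cyp3a44 probe stood at 0.78 and 0.47. Cyp3a13 correlated with the dim Cyp3a44 probe (r = 0.80, and 0.72 within groups), whose values lay near background and in WT DEN were above it on 0 of 4 arrays. With the Cyp3a25 probe A_51_P489367 it correlated with r = 0.74, and 0.68 within groups, but with A_52_P380314 with r = 0.12 and -0.06. Cyp3a11 and Cyp3a41a, at 0.58 over the arrays and 0.17 within groups, varied less alike.

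**Figure D5:**
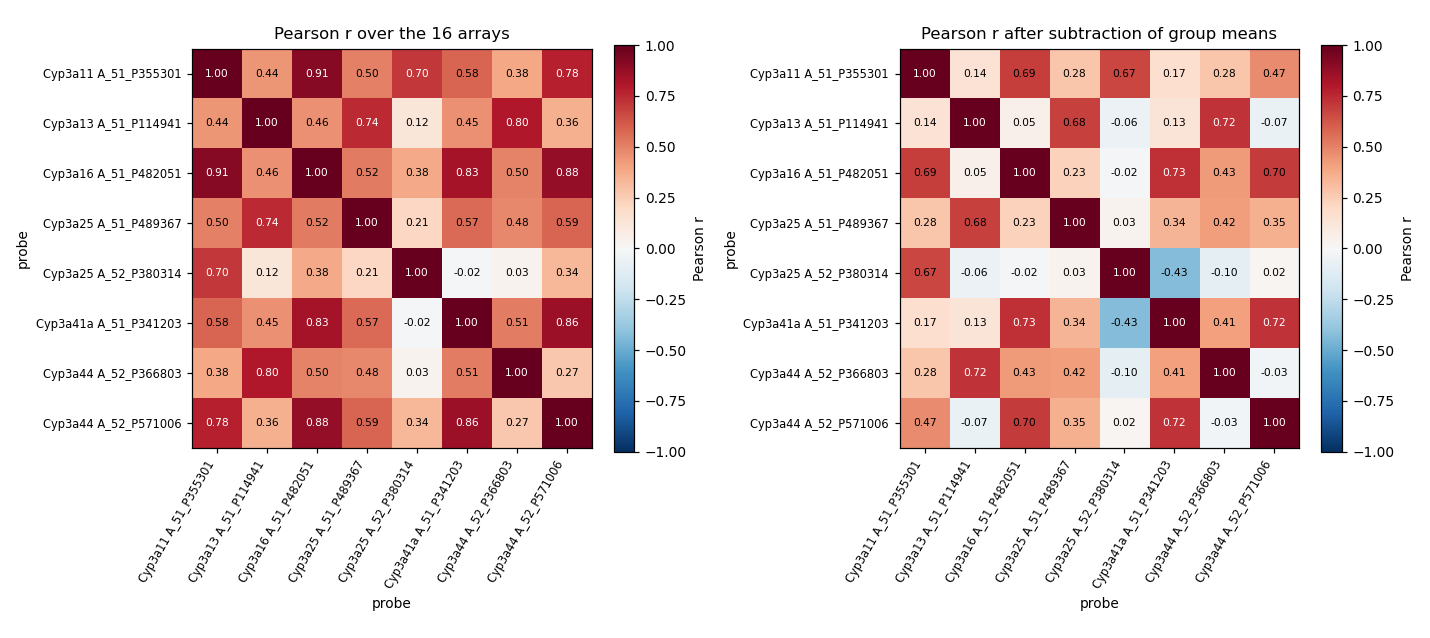
Pearson r between each pair of the 8 Cyp3a probes, over the 16 arrays (left) and after subtraction of group means (right), on a color scale from -1 to 1. Cyp3a11, Cyp3a16, Cyp3a41a and the Cyp3a44 probe A_52_P571006 show r of 0.58 to 0.91 on the left. A_52_P366803 of Cyp3a44, which lay near background, joins Cyp3a13 at 0.80.

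Outside the family, the genes most like each member over the 16 arrays, by Pearson r of the brightest probe, were these. Cyp3a11 was followed by Fez2 (r = 0.90) and by the carboxylesterases Ces2c (0.89) and Ces2b (0.88), which rose by 1.35 and 1.42 log2 after PB in WT and by 1.61 and 1.64 in KO, all called. Cyp3a16 was followed by 4931406C07Rik (0.92), the thiopurine methyltransferase Tpmt (0.92) and Ces2c (0.90). Cyp3a41a was nearest to Pgrmc1 (0.94), a heme-binding partner of P450 enzymes, the glutathione transferase Gstm3 (0.94) and Cyp2a5 (0.93), and the brighter Cyp3a44 probe to Ugt2b36 (0.90), Olfr1394 (0.90) and Ugt2b5 (0.88). Within groups Fez2, Ces2c and Ces2b stood at 0.79, 0.55 and 0.58 with Cyp3a11, 4931406C07Rik, Tpmt and Ces2c at 0.68, 0.78 and 0.52 with Cyp3a16, and the 3 genes of Cyp3a41a at 0.89, 0.90 and 0.87. Cyp3a13 was nearest to the transporter Slc22a26 (0.91), Ugdh (0.87), which makes the donor for glucuronidation, and Rhbdd2 (0.83). Cyp3a25 was nearest to Lrpprc (0.91), Coa4 (0.88) and Galnt11 (0.88), none of which was called after PB.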

How the data were processed

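Liver RNA of 16 mice was measured on Agilent 1-colour mouse arrays. The deposited values are linear intensity values written by Feature Extraction 12.0.3.1, background-corrected and not scaled between arrays, and the authors' series table of intensity values equalled its mean per probe to within 5e-04%. No spot was saturated. Outlier spots (71 to 122 per array) were left out, spots of a probe were averaged, and log2 signals were set relative to each array's 75th percentile. Probes well above background on all 4 arrays of a group (24457 of 41174) were fitted with limma 3.58.1 in R 4.3.3 (4 group means, lmFit and eBayes, Benjamini-Hochberg). Names came from a RefSeq table of GRCm38.p6 (68.5% of probes), and promoter windows were aligned with Biopython 1.88. The fit was tested on simulated data.

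The members and gene lists were chosen with earlier results of these data known. Named besides them were, per list and comparison, up to 4 called genes with the largest change, else 2 with the smallest p, and the 3 genes most correlated with each member. The files hold median, not mean, raw signals, so normexp used these, and both forms of normexp were followed by quantile normalization. Alternatives were other scalings, background corrections, filters and fits, a slide or replicate block, and leaving out each array. The number of arrays limits the precision.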

Additional observations from a re-analysis of the deposited data

How the results depend on the processing

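In KO, the count of Cyp3a probes called after PB was 2 and stayed 2 with median scaling, a strict filter, outlier spots kept, an intensity trend and the replicate block. It was 1 with quantile normalization, both forms of normexp, the slide block, no moderation and only the 2 groups compared, and 0 with no filter and with the series table without scaling. Without 1 array it ranged from 0 to 2. In WT the count of 0 became 1, Cyp3a16, with both forms of normexp (limma adjusted p = 0.00608), and between genotypes under DEN it ranged from 0 to 1 without 1 array. For the PB effect averaged over both genotypes it became 0 with the series table without scaling. That table moved the median of all probes by -0.30 log2 for the PB effect in KO and by 0.10 in WT. The probe still called in KO with the slide block was that of Cyp3a16. The median PB effect of the 8 probes in KO became 0.26 with both forms of normexp and 0.20 with that table. The cause of the other changes was not tested. With the series table the Cyp3a25 probe A_51_P489367 turned to -0.0398 in KO, and in WT it turned to -0.0276 without replicate 3 of WT DEN + PB, with a range up to 0.205 without other arrays.

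The genotype difference in the PB effect turned sign for Cyp3a11 with normexp (0.0398 in both forms), quantile normalization (0.0178) and the series table (0.165), and with that table for Cyp3a16 (0.0924) and the brighter Cyp3a44 probe (0.0255). In all, 27 of 223 such values turned sign, none of them called. Arrays with the same replicate number shared only the number: their deviations from group means correlated with r of -0.21 to 0.36, and 4 of 16 arrays were closest to their own number. The replicate block left the count of calls at 2 in KO and 0 in WT.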
